A study of Mus musculus with 12 samples.

Results

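The genes described are 36 genes of cholesterol synthesis and lipid handling, chosen by symbol for what their products do, out of the 54532 genes counted in each of 12 RNAseq libraries. They comprise 18 enzymes of sterol synthesis, 5 genes of the SREBP control system, 5 genes of the liver X receptor (LXR) branch, 4 genes of fatty acid synthesis and desaturation, and 4 genes of intracellular sterol transport and storage. All 36 were found by their Ensembl gene identifiers and all 36 were abundant enough to be tested in every comparison. The rule that selects them uses function and no measured value, although the list was drawn up with earlier results of these data known.

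The libraries came from mouse brainstem progenitors, taken from pups at postnatal day 3 to 5 on a C57BL/6 background and grown in serum-free medium with EGF and FGF2. The pups carried *Nestin TVA*, in which the nestin promoter drives the avian receptor that RCAS vectors need to enter a cell, and floxed *p53*. No Cre is named in the labels, so all groups share floxed *p53* alleles whose state is not given. There were 4 groups of 3 samples. One pair of groups was infected with an RCAS vector for *ACVR1* WT or R206H alone, and the other pair received a vector for H3.1K27M in addition to the same receptor. Every group, controls included, therefore received a human *ACVR1* vector. ACVR1 is a type I receptor for bone morphogenetic proteins, R206H is an activating change in it, and H3.1K27M is a histone H3.1 carrying methionine in place of a lysine whose methylation marks silenced chromatin. The study's methods count lines from separate litters as samples in its neurosphere assays, but neither they nor the labels state this for the RNAseq replicates. The p-values therefore measure the spread between these samples, which may be technical. The comparisons ask what R206H did without and with H3.1K27M, what H3.1K27M did with either receptor, and whether the R206H difference depended on H3.1K27M.

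Cholesterol is made from acetyl-CoA through mevalonate, isoprenoids and squalene, and the brain makes nearly all of its own because plasma lipoproteins do not cross into it. When sterol in the endoplasmic reticulum falls, SCAP escorts the SREBP precursors to the Golgi, the cleaved factor enters the nucleus and the enzymes of the pathway are transcribed together, often from promoters that hold a sterol regulatory element close to an NF-Y box. When oxysterols accumulate, the LXR nuclear receptors raise export pumps and *Srebf1*. Astrocytes and myelinating oligodendrocytes are known for high rates of sterol synthesis in the postnatal brain.

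RefSeq promoter sequences (GRCm38.p6) were held for 28 of the 36 genes, 37 promoters in all, and are shown for genes on which the results below turn and for *Acat2*, which moved with them but lacks the motif most of them share. Each is written 5′ to 3′ on the strand of its gene. It ends at the base before the RefSeq start, or before the outermost GENCODE start where that lies further upstream. Capitals mark the NF-Y box (CCAAT, or ATTGG on the other strand), the sterol regulatory element core (TCACNCCAC) and the E-box (CACGTG).
Hmgcs1, chr13:119690171-119690350, plus strand: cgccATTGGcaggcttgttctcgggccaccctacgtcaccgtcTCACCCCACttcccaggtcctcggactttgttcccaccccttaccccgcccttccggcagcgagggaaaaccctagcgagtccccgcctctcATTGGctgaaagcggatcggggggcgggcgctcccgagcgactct
Mvk, chr5:114444089-114444268, plus strand: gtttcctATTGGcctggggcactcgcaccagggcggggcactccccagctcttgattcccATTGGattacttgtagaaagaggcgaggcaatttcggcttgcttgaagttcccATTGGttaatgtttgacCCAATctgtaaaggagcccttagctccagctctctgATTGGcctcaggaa
Mvd, chr8:122443423-122443522, minus strand: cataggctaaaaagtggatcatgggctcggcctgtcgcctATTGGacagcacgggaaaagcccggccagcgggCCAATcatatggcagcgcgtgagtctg
Lss, chr10:76531505-76531587, plus strand: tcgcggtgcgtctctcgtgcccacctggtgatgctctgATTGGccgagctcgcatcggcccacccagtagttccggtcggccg
Acat2, chr17:12960748-12960845, minus strand: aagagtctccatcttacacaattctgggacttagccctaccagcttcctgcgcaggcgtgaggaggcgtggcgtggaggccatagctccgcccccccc
Hsd17b7, chr1:169969242-169969385, minus strand: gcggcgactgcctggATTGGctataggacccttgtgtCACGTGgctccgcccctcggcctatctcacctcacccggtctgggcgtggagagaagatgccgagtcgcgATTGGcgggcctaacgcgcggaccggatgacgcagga
Insig2, chr1:121332590-121332729, minus strand: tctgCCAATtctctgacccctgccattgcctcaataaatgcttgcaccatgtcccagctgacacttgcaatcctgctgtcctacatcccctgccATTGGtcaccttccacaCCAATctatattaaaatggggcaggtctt

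In the window reaching from upstream of the start to just inside the gene, the NF-Y box was present in at least 1 promoter of 14 of the 15 sterol synthesis genes with an entry, *Acat2* being the exception. By promoter, 77.8% of theirs held it against 37.4% of the 32851 promoters in the table. The sterol regulatory element core was found in *Hmgcs1* alone among the members, and in 1.24% of all promoters. The E-box stood in 18.9% of the members' promoters and in 7.15% of all. No member held the LXR response element (the DR4 consensus with both half-sites exact), which 0.0152% of all promoters did. Both strands were searched, and the motifs were scored separately even where they touch. These counts describe letters in the windows only.

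The 12 libraries held between 19315020 and 26456257 counted reads, so every member rested on many reads except the low genes *Fdps*, *Mylip*, *Nr1h3* and *Abcg1*. The sum of 6 neural progenitor markers was 2498 to 3552 CPM (read counts scaled for library size) over the 12 libraries. Of 5 endothelial or mural markers, *Cldn5* was at 0 in 11 libraries and *Rgs5* at 6.12 to 22.5 CPM. Their sum was 16.3 to 23.9 CPM in *ACVR1* R206H with H3.1K27M and 6.70 to 12.3 elsewhere. Fibroblast or meningeal markers, also 5, summed to 11.3 to 12.7 CPM in *ACVR1* WT and 14.7 to 15.7 in *ACVR1* R206H. With H3.1K27M they summed to 16.4 to 17.2 CPM under *ACVR1* WT and 20.6 to 22.9 under R206H. The *ACVR1* WT group stood apart in its spread. Its biological coefficient of variation was 0.275, against 0.0453 to 0.0594 in the other groups. *ACVR1* WT replicate 1 differed most from its partners. Among the progenitor markers, *Nes* was at 404, 131 and 72.5 CPM in *ACVR1* WT replicates 1, 2 and 3 and 236 to 338 elsewhere, whereas *Prom1* was at 10.02, 25.2 and 54.0 CPM in those replicates and 10.3 to 21.3 elsewhere. Because of this spread the members' results that use this group are given below with and without replicate 1. Leaving it out keeps replicates 2 and 3, which lay above every other library in the geometric mean of the sterol enzymes. They did so too in the astrocyte and neuron marker sums, in which replicate 1 lay below every other library. Which of the 3 is typical of the group was not tested, so neither fit is preferred. *Fabp7* made up most of the progenitor sum, and *Sox2*, *Sox9* and *Pax6* were lower in each library with H3.1K27M than in each without it, *Sox2* at 213 to 264 against 326 to 374 CPM, *Sox9* at 138 to 162 against 180.2 to 305 CPM and *Pax6* at 24.8 to 39.8 against 51.3 to 83.3 CPM. The summed level of 5 astrocyte markers was 1994, 6711 and 10864 CPM in *ACVR1* WT replicates 1, 2 and 3, 4046 to 5050 in *ACVR1* R206H, 2331 to 2374 in *ACVR1* WT with H3.1K27M and 2922 to 3058 in *ACVR1* R206H with H3.1K27M. The sum for 5 oligodendrocyte markers was 359, 626 and 813 CPM in the same *ACVR1* WT replicates and 351 to 502 elsewhere. Neuron markers, also 5, summed to 26.4, 121 and 156 CPM against 36.4 to 44.9 elsewhere. For 5 microglia markers the sum was 2.87, 7.33 and 11.3 CPM in these replicates and 3.47 to 5.20 in *ACVR1* R206H. With H3.1K27M it was 1.12 to 1.48 CPM under *ACVR1* WT and 1.89 to 2.91 under R206H. The sum for 5 oligodendrocyte precursor markers fell from replicate 1 to replicate 3 of *ACVR1* WT, at 3159.7, 2753 and 2030.1 CPM. It was 3318 to 4073 CPM in the 6 libraries with H3.1K27M, above all 6 without it. *Olig1* made up most of this sum, at 2118, 1572.5 and 1144 CPM in the *ACVR1* WT replicates. *Pdgfra* (130, 428 and 299 CPM) and *Sox10* (16.7, 63.0 and 69.6 CPM) were instead lowest in replicate 1. With H3.1K27M *Pdgfra* was at 118 to 190 CPM against 130 to 428 without it, and *Sox10* at 41.5 to 68.2 against 16.7 to 69.6. The part of these markers in the differences with H3.1K27M described below was not tested. In bulk RNA, fewer cells of a type and less RNA per cell cannot be told apart.

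Levels are given as CPM after TMM scaling over the 12 samples, and levels of different genes are compared only per kilobase of exon. Averaged over the 4 groups, *Scd2*, the main stearoyl-CoA desaturase of the brain, had the highest level at 843 CPM per kilobase. *Hmgcs1*, which makes the HMG-CoA that feeds mevalonate, followed at 132.5 CPM per kilobase, and the exporter *Abca1* at 65.8. The lowest were *Abcg1* at 1.27, the ubiquitin ligase *Mylip* at 1.07 and *Fdps*, farnesyl diphosphate synthase, at 0.794 CPM per kilobase. Reads that fall in exons of 2 genes were not counted, which touched 26.7% of the exon bases of *Fdps* and 12.1% of *Tm7sf2*, where the other gene lies on the same strand. Counting without strand extended this to genes on the opposite strand, at 18.3% of the exon bases of *Fdft1*, 13.2% of *Scap* and 12.1% of *Hmgcs1*. Reads that matched several places were left out as well, and how far this lowered *Fdps* or any other gene was not tested. The map of levels by sample shows most sterol enzymes at their highest in 2 libraries, *ACVR1* WT replicates 2 and 3.

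**Figure D1:**
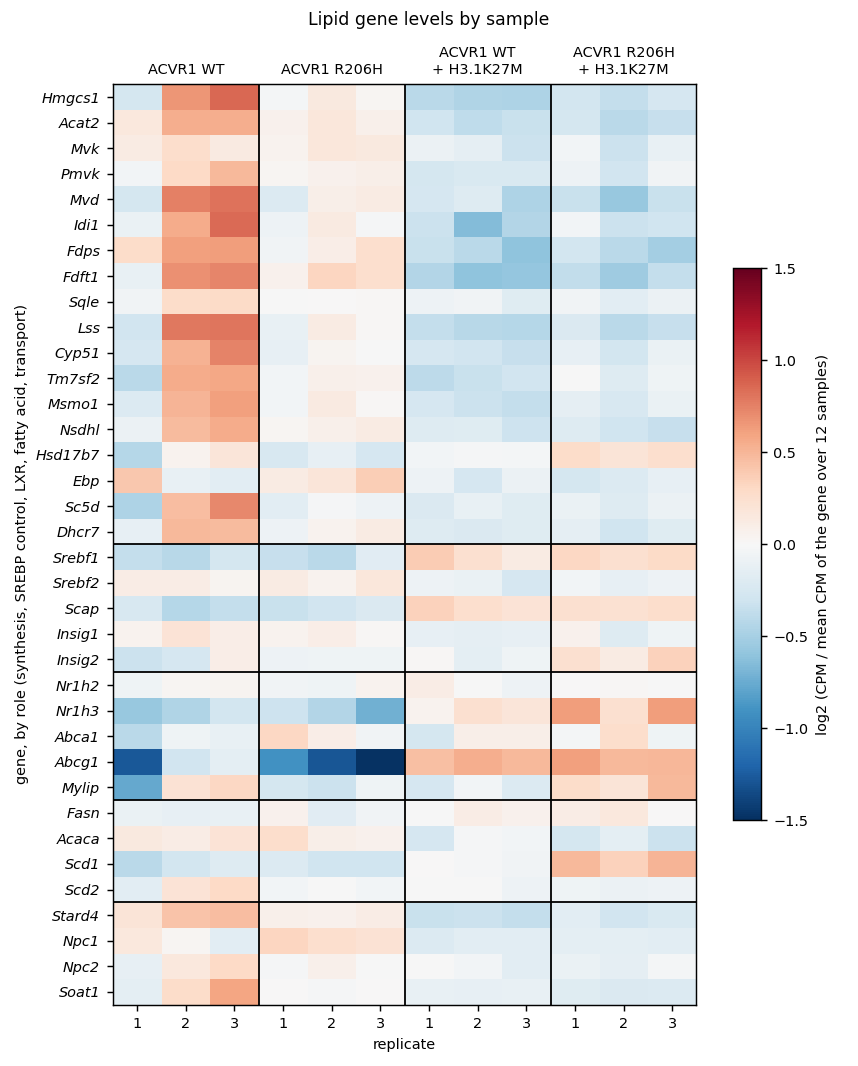
Level of each of the 36 genes (vertical axis, ordered by role) in each of the 12 samples (horizontal axis, replicates within 4 groups), as log2 of the CPM over the gene's mean CPM. Most sterol synthesis genes were highest in *ACVR1* WT replicates 2 and 3, whereas *Srebf1*, *Scap*, *Nr1h3*, *Abcg1* and *Scd1* were highest in the groups with H3.1K27M.

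In progenitors carrying *ACVR1* R206H, most sterol synthesis transcripts were lower with H3.1K27M, while *Abcg1*, *Nr1h3* and *Mylip* of the LXR branch and *Scd1* were higher. A gene was called where edgeR's quasi-likelihood test gave an adjusted p under 0.05, with Benjamini-Hochberg adjustment over all genes tested, and every adjusted p below is of this kind unless another tool is named. Of the 36 genes, 17 fell and 9 rose. The background was high, since 56.5% of all 15482 genes tested were called, 29.1% higher and 27.4% lower. Sterol synthesis held 12 of the genes that fell and 1 that rose, *Hsd17b7*. The median log2 fold change was -0.13 over the members, -0.23 over the sterol enzymes and 0.57 over the LXR genes, against -0.0018 over all genes tested. The groups did not overlap for 8 members that were higher and 20 that were lower, where 29.3% and 33.8% of all genes behaved so. An unadjusted p under 0.05 was reached by 27 members, against 61.3% of all genes. With all 12 samples in 1 fit, 16 of the calls were kept, 10 were lost and none was added, at the background given at the end.

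With *ACVR1* WT as the receptor, 6 sterol enzymes passed as lower in the H3.1K27M group, all of them but *Idi1* also called with R206H. Of the 36 genes, 8 fell and 3 rose, at a background of 23% of 15385 genes, 12.6% higher and 10.4% lower. The genes that fell were *Acat2*, *Mvk*, *Pmvk*, *Idi1*, *Fdps*, *Fdft1*, *Insig1* and *Stard4*, and those that rose were *Srebf1*, *Scap* and *Nr1h3*. All 18 sterol enzymes had a log2 fold change below 0, with a median of -0.66 against -0.02 over all genes, of which 47.7% were above 0. The value nearest 0 was -0.0014, and the mean CPM of *Hsd17b7* was 100.6% of its *ACVR1* WT mean. The groups did not overlap for 6 members that were higher and 15 that were lower, at 23.5% and 21.1% of all genes. An unadjusted p under 0.05 was reached by 24 members, against 38.8% of all genes. Without *ACVR1* WT replicate 1, 29 members were called, 24 lower and 5 higher, at a background of 52.6% (26.9% higher and 25.6% lower), and they included all 11 called with it. Leaving out *ACVR1* WT replicate 2, or any 1 replicate with H3.1K27M, left 4 calls, *Acat2*, *Stard4*, *Srebf1* and *Scap*, at backgrounds of 9.36%, 7.75%, 6.82% and 6.77%. A fit with the replicate number as a block kept 4 of the 11 calls made with all samples. DESeq2 kept all 11 and added 11, and 1 fit of all 12 samples kept all 11 and added 15. The backgrounds of these 3 fits are given at the end.

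With H3.1K27M present, R206H progenitors had higher levels of a smaller set of these genes. Of the 36 genes, 10 rose and 0 fell, at a background of 20.3% of 15672 genes, 11.4% higher and 8.95% lower. The genes that rose were *Hmgcs1*, *Cyp51*, *Tm7sf2*, *Msmo1* and *Hsd17b7* among the enzymes, *Insig2*, the LXR genes *Nr1h3* and *Mylip*, and *Scd1* and *Stard4*. Their log2 fold changes ran from 0.14 to 0.52. The median over the members was 0.08 against 0.0014 over all genes. The groups did not overlap for 8 members that were higher and 1 that was lower, at 14.8% and 22.4% of all genes. An unadjusted p under 0.05 was reached by 13 members, none of them lower, against 32.7% of all genes. DESeq2 called 7 members higher and 0 lower, at a background of 16.1%. With all 12 samples in 1 fit, which includes the variable *ACVR1* WT group, *Scd1* was the 1 member called, at a background of 2.85%.

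Without H3.1K27M, no member passed the test between *ACVR1* R206H and *ACVR1* WT, and neither did any of the 15066 genes tested, a background of 0%. An unadjusted p under 0.05 was reached by 4 members, *Acat2*, *Fdps*, *Stard4* and *Npc1*, against 3.54% of all genes, and DESeq2 also called 0 members and 0.173% of all genes. The groups did not overlap for 2 members that were higher, *Abca1* and *Npc1*, and 2 that were lower, *Fdps* and *Stard4*, at 5.34% and 3.87% of all genes. The median log2 fold change was -0.19 over the members, against -0.01 over all genes. Without *ACVR1* WT replicate 1, 19 members were lower and 2 higher in the R206H group by the same test, at a background of 23.1% (12.1% higher and 11% lower), and 15 of those lower were sterol enzymes. The 2 that were higher were *Ebp* and *Npc1*. This comparison and that of H3.1K27M with *ACVR1* WT share their control samples.

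**Figure D2:**
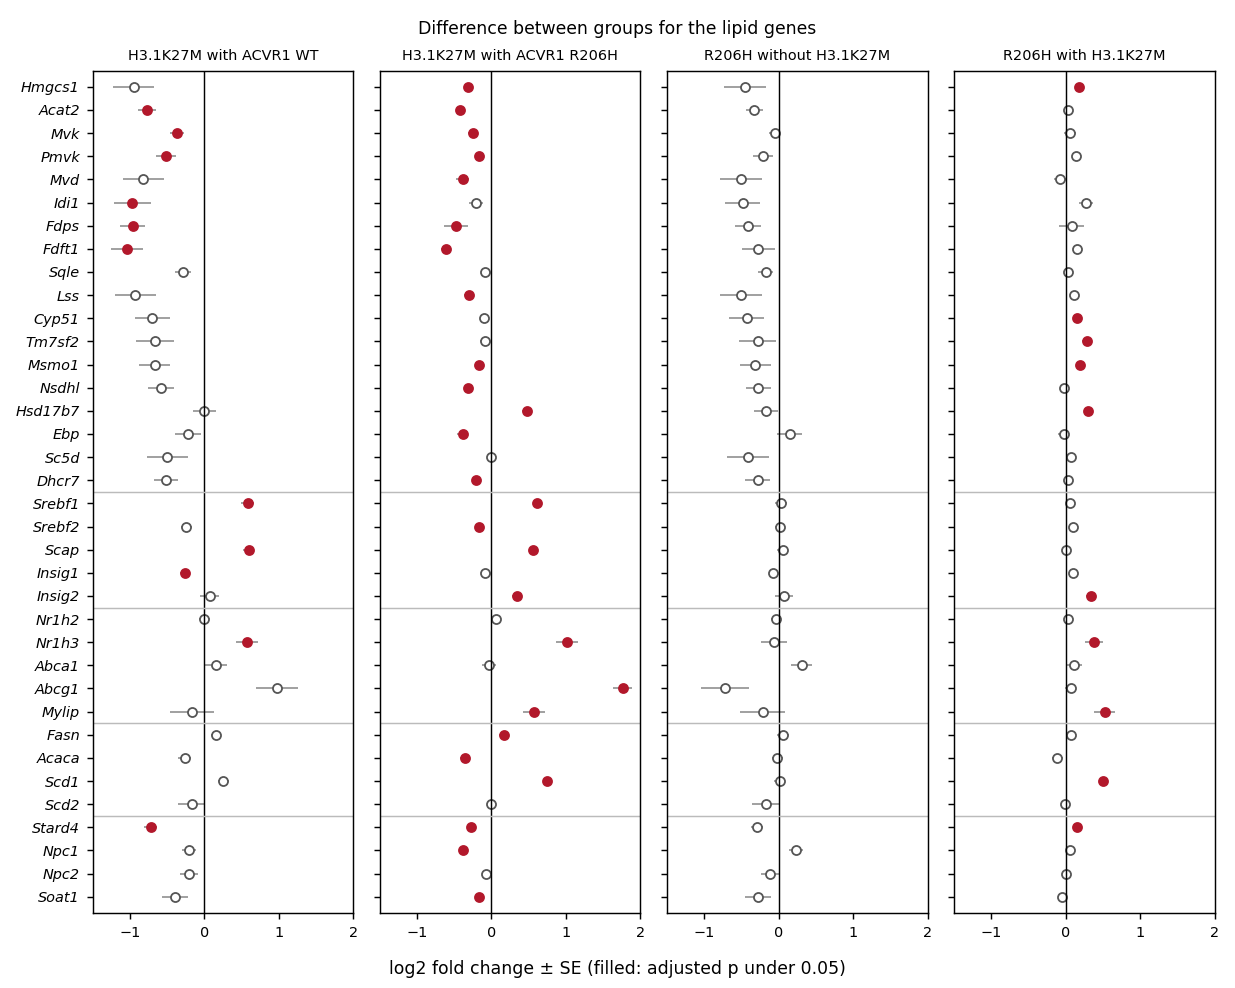
Log2 fold change (horizontal axis, bars are the standard error) of the 36 genes (vertical axis) in the 4 comparisons, filled where the adjusted p was under 0.05. Apart from *Hsd17b7* with R206H, sterol enzymes lie at or left of 0 in both H3.1K27M panels, 10 genes pass to the right for R206H with H3.1K27M, and none passes for R206H without it, where the bars are long.

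The early enzymes of sterol synthesis carry acetyl-CoA to mevalonate and on to isoprenoids. *Hmgcs1* (ENSMUSG00000093930, chr13:119690379-119708260, GRCm38, plus strand) measured 506, 966 and 1107 CPM in *ACVR1* WT, 597, 672 and 623 in *ACVR1* R206H, 459, 445 and 441.5 in *ACVR1* WT with H3.1K27M, and 501, 474 and 510.3 in *ACVR1* R206H with H3.1K27M. The 6 samples with H3.1K27M lay below the 3 with R206H alone, and *ACVR1* WT replicate 1 lay among the R206H with H3.1K27M samples while its 2 partners exceeded every other library. Its log2 fold change for H3.1K27M was -0.32 ± 0.05 (SE, adjusted p = 0.000161) with R206H and -0.95 ± 0.28 (adjusted p = 0.0516) with *ACVR1* WT. The latter did not pass and became -1.22 (adjusted p = 8.07e-06) without *ACVR1* WT replicate 1. With H3.1K27M it rose by 0.17 ± 0.04 in R206H progenitors (adjusted p = 0.005).

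*Acat2*, the cytosolic thiolase that joins acetyl-CoA units, stood at 69.4, 90.8 and 91.0 CPM in *ACVR1* WT, 65.0, 70.4 and 66.05 in *ACVR1* R206H, 50.8, 48.0 and 49.7 in *ACVR1* WT with H3.1K27M, and 52.0, 47.1 and 49.0 in *ACVR1* R206H with H3.1K27M. No sample with H3.1K27M overlapped any sample without it, and the fall passed with either receptor, at a log2 fold change of -0.77 ± 0.12 with *ACVR1* WT (adjusted p = 0.00729) and -0.42 ± 0.05 with R206H (adjusted p = 2.68e-05). The former was -0.89 without *ACVR1* WT replicate 1. Among the sterol enzymes it had the smallest unadjusted p for R206H without H3.1K27M, 0.0289 for a log2 fold change of -0.33 ± 0.12 (adjusted p = 0.94). That value was -0.44 (adjusted p = 0.00338) without *ACVR1* WT replicate 1.

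*Mvk*, *Pmvk* and *Mvd* encode the kinases and the decarboxylase that turn mevalonate into isopentenyl diphosphate. *Mvk* and *Pmvk* fell with H3.1K27M under either receptor. The log2 fold changes with *ACVR1* WT and R206H were -0.37 and -0.25 for *Mvk* and -0.52 and -0.16 for *Pmvk*, and without *ACVR1* WT replicate 1 the former values were -0.39 for *Mvk* and -0.65 for *Pmvk*. *Mvd* read 40.1, 81.25 and 84.0 CPM in *ACVR1* WT, 41.6, 50.8 and 52.3 in *ACVR1* R206H, 40.2, 42.0 and 34.8 in *ACVR1* WT with H3.1K27M, and 38.2, 32.2 and 37.9 in *ACVR1* R206H with H3.1K27M. Its *ACVR1* WT replicate 1 lay within the range of the H3.1K27M samples and the other 2 above all other libraries. The H3.1K27M difference passed with R206H (-0.39 ± 0.09, adjusted p = 0.00235) and not with *ACVR1* WT (-0.82 ± 0.28, adjusted p = 0.077). The latter passed without *ACVR1* WT replicate 1, at -1.09 (adjusted p = 2.75e-05).

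*Idi1*, which isomerises isopentenyl diphosphate, measured 17.3, 27.3 and 33.5 CPM in *ACVR1* WT and 14.8, 11.8 and 13.7 in *ACVR1* WT with H3.1K27M, against 17.6, 20.3 and 18.4 in *ACVR1* R206H and 18.0, 14.8 and 15.1 in *ACVR1* R206H with H3.1K27M. The first pair of groups did not overlap (-0.96 ± 0.24, adjusted p = 0.0341), whereas the pair with R206H overlapped and did not pass (-0.21 ± 0.09, adjusted p = 0.0627). *Fdps*, which builds farnesyl diphosphate, fell with either receptor. It went from 4.05, 5.11 and 5.15 to 2.66, 2.53 and 2.20 CPM with *ACVR1* WT (-0.96 ± 0.17, adjusted p = 0.0125). With R206H it went from 3.22, 3.59 and 3.99 to 2.76, 2.53 and 2.35 CPM (-0.47 ± 0.16, adjusted p = 0.0236), again with no overlap. The differences under *ACVR1* WT were -1.19 for *Idi1* and -1.07 for *Fdps* without replicate 1.

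*Fdft1* (ENSMUSG00000021273, chr14:63145150-63179578, minus strand), squalene synthase, commits the pathway to sterols and had the largest fall of any member with *ACVR1* WT. Its levels were 82.6, 143 and 148 CPM in *ACVR1* WT, 92.7, 111 and 106 in *ACVR1* R206H, 65.3, 58.7 and 59.4 in *ACVR1* WT with H3.1K27M, and 69.1, 61.2 and 69.2 in *ACVR1* R206H with H3.1K27M. Every sample with H3.1K27M lay below every sample without it. The group mean fell to 49.2% of the *ACVR1* WT mean (log2 fold change -1.03 ± 0.22, adjusted p = 0.02), and the fall with R206H was -0.61 ± 0.07 (adjusted p = 1.01e-05). Under *ACVR1* WT it was -1.26 (adjusted p = 3.55e-06) without replicate 1.

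Downstream of squalene, *Sqle*, *Lss*, *Cyp51*, *Tm7sf2*, *Msmo1*, *Nsdhl*, *Hsd17b7*, *Ebp*, *Sc5d* and *Dhcr7* oxidise, cyclise, demethylate and reduce the ring system. None of these 10 passed for H3.1K27M with *ACVR1* WT when all samples were used, but 8, all except *Hsd17b7* and *Ebp*, were lower without *ACVR1* WT replicate 1, with log2 fold changes of -1.21 to -0.39. *Sqle* and *Sc5d* passed in no comparison of all samples. With R206H, *Lss* (-0.31), *Msmo1* (-0.16), *Nsdhl* (-0.32), *Ebp* (-0.39) and *Dhcr7* (-0.21) fell. *Lss*, lanosterol synthase, was the clearest case of the split within *ACVR1* WT. It read 66.1 CPM in replicate 1 and 139.7 and 139.9 CPM in replicates 2 and 3, against 74.3 to 87.8 in *ACVR1* R206H, 59.6 to 63.1 in *ACVR1* WT with H3.1K27M and 60.7 to 69.2 in *ACVR1* R206H with H3.1K27M. Its log2 fold change for H3.1K27M with *ACVR1* WT was -0.93 ± 0.28 (adjusted p = 0.0561) and became -1.21 (adjusted p = 2.56e-06) without replicate 1.

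*Hsd17b7*, the 3-ketosteroid reductase of C4 demethylation, went the other way from those 5 genes. It measured 26.2, 36.6 and 40.0 CPM in *ACVR1* WT, 29.8, 32.3 and 29.6 in *ACVR1* R206H, 34.3, 34.7 and 34.4 in *ACVR1* WT with H3.1K27M, and 42.8, 40.2 and 41.8 in *ACVR1* R206H with H3.1K27M. The last group exceeded every other library. *Hsd17b7* rose with H3.1K27M in R206H progenitors (0.47 ± 0.06, adjusted p = 1.97e-05) and with R206H in H3.1K27M progenitors (0.30 ± 0.05, adjusted p = 0.000826). In the latter comparison *Tm7sf2*, a sterol reductase, rose from 26.6, 27.7 and 28.5 to 34.7, 30.6 and 33.4 CPM (0.28 ± 0.06, adjusted p = 0.00471). *Msmo1*, the methylsterol oxidase, rose there from 107, 102 and 99.8 to 117, 108 and 119 CPM (0.19 ± 0.04, adjusted p = 0.0104), and neither gene's groups overlapped. *Cyp51*, the lanosterol demethylase, rose by 0.16. *Ebp*, the isomerase that shifts the ring double bond, was the only sterol enzyme for which *ACVR1* WT replicate 1 was the highest of its group, at 25.5 CPM against 17.9 and 17.3 in its partners.

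**Figure D3:**
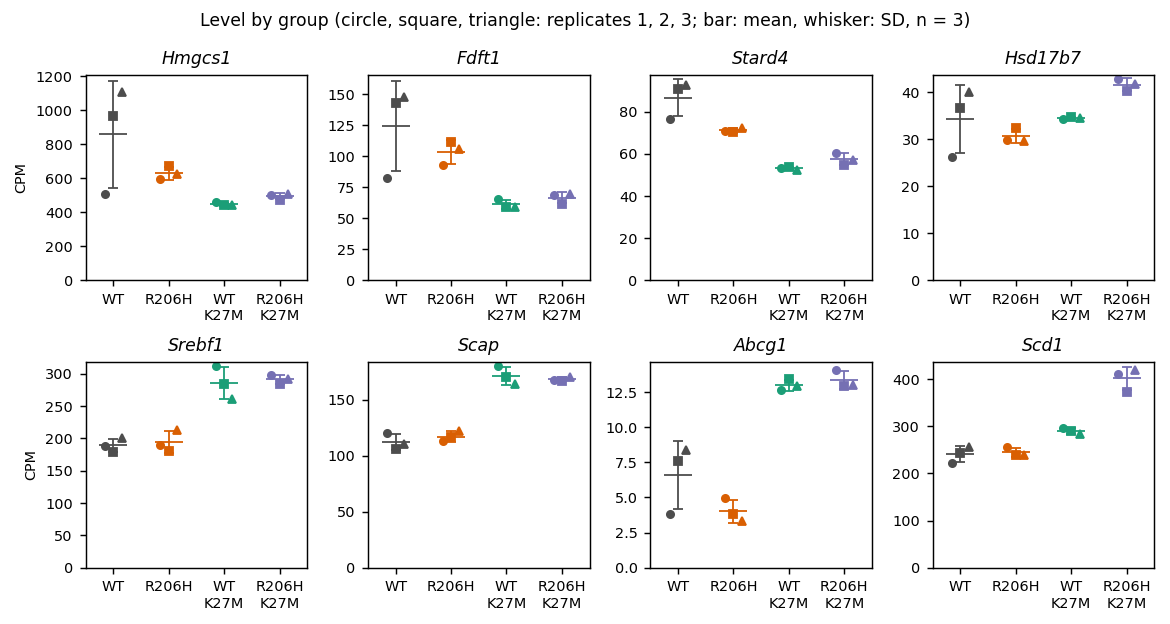
CPM (vertical axis, from 0) of 8 genes in the 12 samples by group (horizontal axis), with group mean and SD (n = 3). *Fdft1* and *Stard4* lie lower and *Srebf1* and *Scap* higher in all samples with H3.1K27M than in all without it, and the *ACVR1* WT replicates of *Hmgcs1* and *Fdft1* spread widely, with replicate 1 at the bottom.

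Within *ACVR1* WT, replicate 1 was the lowest sample for 17 of the 18 sterol enzymes and for 29 of the 36 members, and replicate 3 was the highest for 15 of the 18. The geometric mean of the 18 enzymes was 54.1, 81.2 and 85.8 CPM in the *ACVR1* WT replicates, 56.9, 62.8 and 61.9 in *ACVR1* R206H, 49.5, 48.0 and 46.9 in *ACVR1* WT with H3.1K27M, and 53.1, 47.9 and 51.4 in *ACVR1* R206H with H3.1K27M. By this mean *ACVR1* WT replicate 1 lay below the R206H samples and above all samples with H3.1K27M, and its 2 partners lay above every other library. The median coefficient of variation of an enzyme was 25.4% in *ACVR1* WT and 3.74% to 5.97% in the other groups, and for the SREBP control genes it was 5.57% in *ACVR1* WT. The astrocyte, oligodendrocyte, neuron and microglia marker sums moved in the same order over these 3 libraries. *Nes* and the oligodendrocyte precursor sum, mostly *Olig1*, moved in the opposite order, but *Pdgfra* and *Sox10* of that list were lowest in replicate 1. The part of these markers in the enzyme levels was not tested. For R206H without H3.1K27M, none of the 5 astrocyte markers passed with all samples (edgeR, 0 also at an unadjusted p under 0.05). Without *ACVR1* WT replicate 1, *Gfap* (-0.98), *Aqp4* (-1.11), *Gja1* (-1.12) and *S100b* (-0.45) were lower, in the fit where 15 sterol enzymes were lower, and *Aldh1l1* (-0.07) did not pass. In the other comparisons the 5 did not all move one way. With H3.1K27M in R206H progenitors, *Gfap* (-1.17), *Aqp4* (-0.68) and *Gja1* (-0.23) fell, *S100b* rose (0.49) and *Aldh1l1* did not pass (-0.05). With R206H in H3.1K27M progenitors, *Gfap* (0.75) and *Aqp4* (0.86) rose, *S100b* fell (-0.27), and *Gja1* (-0.09) and *Aldh1l1* (-0.04) did not pass. For H3.1K27M with *ACVR1* WT, *Gfap* alone passed (-2.44, adjusted p = 0.0431). With *ACVR1* WT replicate 1 left out, *Gfap* (-2.91), *Aqp4* (-2.65) and *Gja1* (-1.26) were lower there, *S100b* (0.30) was higher and *Aldh1l1* (-0.09) did not pass.

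**Figure D4:**
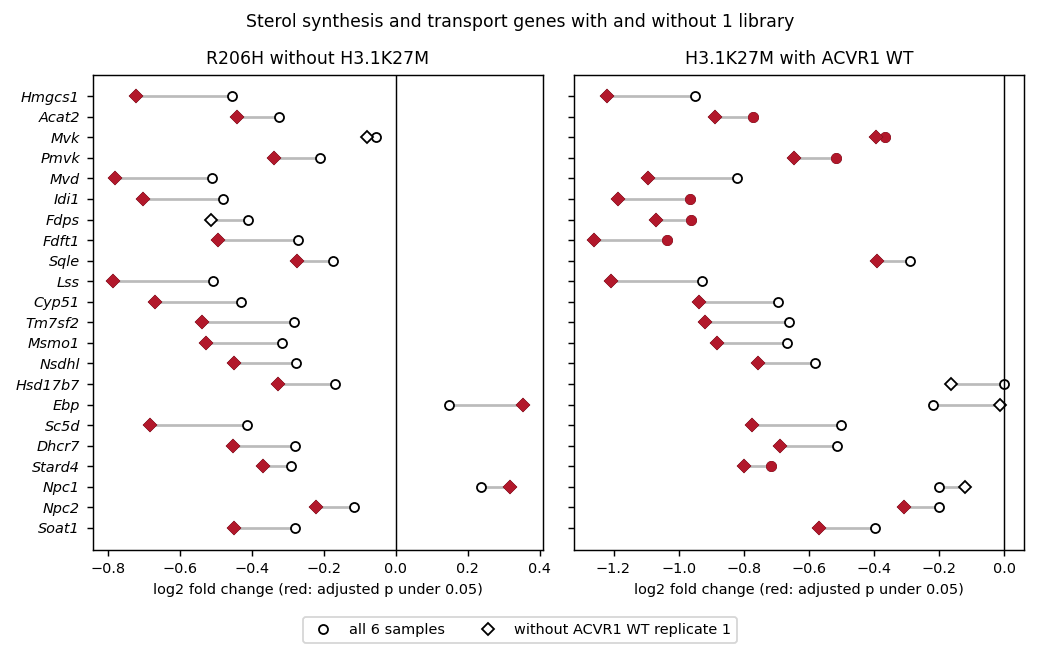
Log2 fold change (horizontal axis) of the 18 sterol synthesis and 4 transport and storage genes (vertical axis) with all 6 samples (circles) and without *ACVR1* WT replicate 1 (diamonds), red where the adjusted p was under 0.05. For R206H without H3.1K27M no circle is red, whereas without that library red diamonds lie left of 0 for all but *Mvk*, *Fdps*, *Ebp* and *Npc1*, the last 2 being higher.

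Of the SREBP control genes, *Srebf1* and *Scap* rose with H3.1K27M under either receptor, while *Srebf2* and *Insig1* fell under 1 receptor each. *Srebf1* (ENSMUSG00000020538, chr11:60199089-60222581, minus strand), which encodes the SREBP1 factors that favour fatty acid genes, stood at 188, 179.7 and 201 CPM in *ACVR1* WT, 189, 181 and 214 in *ACVR1* R206H, 312, 285 and 261 in *ACVR1* WT with H3.1K27M, and 298, 284 and 293 in *ACVR1* R206H with H3.1K27M. All 6 samples with H3.1K27M exceeded all 6 without it. It rose by 0.58 ± 0.09 (adjusted p = 0.00775) with *ACVR1* WT and 0.61 ± 0.06 (adjusted p = 2.22e-06) with R206H.

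*Scap* (chr9:110333288-110384950, plus strand), the escort protein, read 120.4, 106 and 111 CPM in *ACVR1* WT, 113, 117 and 122 in *ACVR1* R206H, 180.3, 170.3 and 164 in *ACVR1* WT with H3.1K27M, and 168, 167 and 171 in *ACVR1* R206H with H3.1K27M. Again all 6 samples with H3.1K27M lay above the other 6, a rise of 0.60 ± 0.07 (adjusted p = 0.00435) and 0.55 ± 0.04 (adjusted p = 4.17e-07). These rises were nearly the same without *ACVR1* WT replicate 1, at 0.58 for *Srebf1* and 0.65 for *Scap* with *ACVR1* WT as the receptor.

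*Srebf2*, whose product favours the sterol enzymes, fell with H3.1K27M in R206H progenitors (-0.17 ± 0.04, adjusted p = 0.00561), from 275, 263 and 285 CPM to 247, 232 and 239.95 CPM, with no overlap. With *ACVR1* WT its difference was -0.24 ± 0.08 and did not pass (adjusted p = 0.0668), whereas it passed at -0.23 (adjusted p = 0.026) without *ACVR1* WT replicate 1. *Insig1* and *Insig2* retain SCAP in the endoplasmic reticulum. *Insig1* fell with *ACVR1* WT (-0.26 ± 0.06, adjusted p = 0.0282), from 138, 153 and 142 CPM to 121, 121 and 121 CPM, and was at -0.30 without *ACVR1* WT replicate 1. *Insig2* measured 34.4, 36.1 and 46.1 CPM in *ACVR1* WT, 40.8, 41.0 and 41.1 in *ACVR1* R206H, 43.6, 38.7 and 41.1 in *ACVR1* WT with H3.1K27M, and 50.9, 46.8 and 54.6 in *ACVR1* R206H with H3.1K27M. The last group was above every other library. *Insig2* rose by 0.34 ± 0.06 for H3.1K27M with R206H (adjusted p = 0.000361) and by 0.33 ± 0.06 for R206H with H3.1K27M (adjusted p = 0.00209). For R206H without H3.1K27M the smallest unadjusted p of the 5 belonged to *Insig1*, 0.294 for a log2 fold change of -0.07 ± 0.06, with 138, 142 and 135 CPM in the R206H samples. It was -0.10 (adjusted p = 0.243) without *ACVR1* WT replicate 1.

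The LXR branch held the largest change of any member. *Abcg1* (ENSMUSG00000024030, chr17:31057675-31117988, plus strand), which pumps cholesterol to lipoprotein particles, measured 3.81, 7.58 and 8.35 CPM in *ACVR1* WT, 4.93, 3.79 and 3.30 in *ACVR1* R206H, 12.7, 13.4 and 12.9 in *ACVR1* WT with H3.1K27M, and 14.1, 13.0 and 13.0 in *ACVR1* R206H with H3.1K27M. Each sample with H3.1K27M exceeded each sample without it. With R206H the level was 3.40-fold higher (log2 1.76 ± 0.13, adjusted p = 3.24e-07). With *ACVR1* WT the difference of 0.97 ± 0.28 did not pass (adjusted p = 0.0519), and it was 0.69 (adjusted p = 0.00107) without replicate 1, which held the lowest level of its group.

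*Nr1h3*, which encodes LXRα, stood at 3.29, 3.56 and 4.03 CPM in *ACVR1* WT, 3.92, 3.59 and 2.96 in *ACVR1* R206H, 5.06, 5.78 and 5.52 in *ACVR1* WT with H3.1K27M, and 7.51, 5.75 and 7.51 in *ACVR1* R206H with H3.1K27M. It rose with H3.1K27M under either receptor, by 0.58 ± 0.15 (adjusted p = 0.0369) and 1.02 ± 0.15 (adjusted p = 0.000118), and no sample with H3.1K27M overlapped one without it. The former value was 0.51 (adjusted p = 0.023) without *ACVR1* WT replicate 1. The rise with R206H among H3.1K27M samples was 0.38 ± 0.12, at an adjusted p of 0.0489 and with overlapping groups. *Nr1h2*, which encodes LXRβ, passed in no comparison of all samples and kept its group means between 50.7 and 51.9 CPM.

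*Mylip*, an LXR target that marks lipoprotein receptors for degradation, read 2.02, 4.02 and 4.27 CPM in *ACVR1* WT, 2.87, 2.76 and 3.30 in *ACVR1* R206H, 2.90, 3.34 and 3.00 in *ACVR1* WT with H3.1K27M, and 4.18, 3.95 and 4.82 in *ACVR1* R206H with H3.1K27M. It rose by 0.52 ± 0.14 for R206H with H3.1K27M (adjusted p = 0.0189) and 0.57 ± 0.15 for H3.1K27M with R206H (adjusted p = 0.00649). For H3.1K27M with *ACVR1* WT its value was -0.17 ± 0.29 (adjusted p = 0.718), and without *ACVR1* WT replicate 1 it was lower there, at -0.44 (adjusted p = 0.0466). *Abca1*, the exporter to lipid-poor particles, passed in no comparison of all samples. Its levels were 514, 651 and 632 CPM in *ACVR1* WT and 843, 732 and 660.0 CPM in *ACVR1* R206H, a log2 fold change of 0.31 ± 0.14 and the smallest unadjusted p of the LXR genes there, 0.0647 (adjusted p = 0.94). Those groups did not overlap, and the difference was 0.21 (adjusted p = 0.184) without *ACVR1* WT replicate 1. *Abcg1* had the largest difference of any member there, -0.72 ± 0.33 (unadjusted p = 0.0671, adjusted p = 0.94), and was lower without that library, at -0.99 (adjusted p = 0.00903).

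In fatty acid synthesis the desaturase *Scd1* (ENSMUSG00000037071, chr19:44394455-44407879, minus strand) changed most. It measured 223, 243 and 257 CPM in *ACVR1* WT, 256, 239 and 239 in *ACVR1* R206H, 297, 290.2 and 284 in *ACVR1* WT with H3.1K27M, and 412, 374 and 420.2 in *ACVR1* R206H with H3.1K27M. The *ACVR1* R206H with H3.1K27M samples lay above all others. It was 1.41-fold higher for R206H with H3.1K27M (log2 0.50 ± 0.04, adjusted p = 5.56e-06) and 1.68-fold higher for H3.1K27M with R206H (0.74 ± 0.05, adjusted p = 1.32e-07). For H3.1K27M with *ACVR1* WT the groups were apart but the difference of 0.26 ± 0.08 did not pass (adjusted p = 0.0548). It passed without *ACVR1* WT replicate 1, at 0.20 (adjusted p = 0.017). For R206H without H3.1K27M it was 0.01 ± 0.08 with that library and -0.04 (adjusted p = 0.711) without it.

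Its neighbour and paralogue *Scd2*, with 4120.0, 5325 and 5667 CPM in *ACVR1* WT and 4344 to 4582 in the other 9 libraries, passed in no comparison of all samples. It was lower for H3.1K27M with *ACVR1* WT once *ACVR1* WT replicate 1 was left out (-0.30, adjusted p = 0.0165). For R206H without H3.1K27M it had the smallest unadjusted p of the 4 fatty acid genes, 0.398 for a log2 fold change of -0.17 ± 0.19, which was -0.29 (adjusted p = 0.0792) without that library. *Fasn*, fatty acid synthase, rose slightly with H3.1K27M in R206H progenitors (0.17 ± 0.06, adjusted p = 0.0381), from 382, 326 and 354 CPM to 394, 408 and 366 CPM with overlap. *Acaca*, acetyl-CoA carboxylase, fell in that comparison from 81.5, 72.05 and 70.8 CPM to 56.2, 61.2 and 54.0 CPM with no overlap (-0.36 ± 0.07, adjusted p = 0.000745). Under *ACVR1* WT it was at -0.27 with all samples (adjusted p = 0.0647) and without replicate 1 (adjusted p = 0.0254).

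Among the transport and storage genes, *Stard4*, which carries cholesterol between membranes, followed the sterol enzymes. Its levels were 76.6, 90.6 and 92.8 CPM in *ACVR1* WT, 70.8, 70.2 and 72.4 in *ACVR1* R206H, 53.3, 53.8 and 52.2 in *ACVR1* WT with H3.1K27M, and 60.4, 54.9 and 57.2 in *ACVR1* R206H with H3.1K27M. The 4 groups were apart from each other, in the order *ACVR1* WT, *ACVR1* R206H, *ACVR1* R206H with H3.1K27M and *ACVR1* WT with H3.1K27M. It fell with H3.1K27M under *ACVR1* WT (-0.72 ± 0.09, adjusted p = 0.00401) and under R206H (-0.28 ± 0.05, adjusted p = 0.00028), and it rose with R206H among H3.1K27M samples (0.14 ± 0.05, adjusted p = 0.0456). Without H3.1K27M its R206H difference was -0.29 ± 0.08 with the smallest unadjusted p of all 36 members, 0.0127 (adjusted p = 0.94). Without *ACVR1* WT replicate 1 that difference was -0.37 (adjusted p = 0.00429) and the fall with H3.1K27M under *ACVR1* WT was -0.80.

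*Npc1*, which exports cholesterol from lysosomes, fell with H3.1K27M in R206H progenitors from 312, 298 and 291 CPM to 226, 226 and 224 CPM (-0.38 ± 0.04, adjusted p = 8.61e-06). *Soat1*, which esterifies cholesterol for storage, fell there from 186, 182 and 185 CPM to 162, 158 and 159.98 CPM (-0.17 ± 0.04, adjusted p = 0.00178). The lysosomal sterol-binding protein *Npc2* passed in no comparison that used all samples. None of these 3 passed for H3.1K27M with *ACVR1* WT when all samples were used. With *ACVR1* WT replicate 1 left out, *Npc2* (-0.31, adjusted p = 0.00737) and *Soat1* (-0.57, adjusted p = 0.000904) were lower there and *Npc1* (-0.12, adjusted p = 0.164) did not pass.

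The R206H difference was then compared between progenitors with and without H3.1K27M, as an interaction over all 12 samples. No member passed, at a background of 0.0712% of 15445 genes (0.0583% above 0 and 0.0129% below), and 11 members had an unadjusted p under 0.05 against 7.66% of all genes. The interaction was above 0 for 31 of 36 members and for 54% of all genes, with a median of 0.33 against 0.02 over all genes, meaning that the R206H difference was more positive with H3.1K27M than without it. The smallest p by role belonged to *Hsd17b7* (0.47 ± 0.17, adjusted p = 0.568), *Insig1* (0.17 ± 0.08, adjusted p = 0.671), *Abcg1* (0.79 ± 0.33, adjusted p = 0.642), *Scd1* (0.49 ± 0.09, adjusted p = 0.104) and *Stard4* (0.44 ± 0.10, adjusted p = 0.226). DESeq2 called *Scd1* (adjusted p = 0.000155) and *Stard4* (adjusted p = 0.0172), at a background of 0.622%. Without *ACVR1* WT replicate 1 the edgeR test called 26 members, 24 of them above 0, at a background of 26.6%. *Hsd17b7* was then at 0.64, *Abcg1* at 1.08, *Scd1* at 0.55, *Scd2* at 0.29 and *Stard4* at 0.53, all of them called, and *Insig1* at 0.21 (adjusted p = 0.0665) was not.

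A wider list of 50 further lipid genes, set by function, had 49 that could be tested. For R206H with H3.1K27M 8 rose and 7 fell (background 20.3%), for H3.1K27M with *ACVR1* WT 5 rose and 6 fell (23%), for H3.1K27M with R206H 16 rose and 17 fell (56.5%), and for R206H without H3.1K27M none passed edgeR's test, 1 having an unadjusted p under 0.05 (*Erg28*, -0.25). With *ACVR1* WT replicate 1 left out, 4 were higher and 13 lower for R206H without H3.1K27M (background 23.1%), and 14 higher and 16 lower for H3.1K27M with *ACVR1* WT (52.6%). Under *ACVR1* WT, the next 3 genes then stood at -0.50 for *Acly*, 1.30 for *Vldlr* and 1.93 for *Acacb*. *Acly*, which supplies cytosolic acetyl-CoA, fell with H3.1K27M, with log2 fold changes of -0.48 and -0.39 under *ACVR1* WT and R206H, at adjusted p = 0.005 and 6.53e-06. *Vldlr*, a lipoprotein receptor, rose by 1.11 and 1.06 in the same comparisons, at adjusted p = 0.00644 and 1.06e-08. *Acacb*, the mitochondrial acetyl-CoA carboxylase, rose by 1.73 and 1.83 (adjusted p = 0.00869 and 1.71e-05) from at most 1.09 CPM in samples without H3.1K27M to at least 2.12 CPM in those with it, whereas its paralogue *Acaca* rose in neither. Of 6 further LXR genes, 3 rose and 2 fell for H3.1K27M with R206H. The LXR-responsive gene *Smpdl3a* rose by 0.93 (adjusted p = 8.69e-08) and *Pltp*, a phospholipid transfer protein, by 0.92 (adjusted p = 1.64e-07), and the receptor partner *Rxra* by 0.44, while *Rxrb* (-0.26) and *Arl4c* (-0.20) fell. For H3.1K27M with *ACVR1* WT, *Rxrb* fell (-0.49, adjusted p = 0.0243) and none of the 6 passed as higher by edgeR, with *Smpdl3a* at 0.41 (unadjusted p = 0.0286), *Pltp* at 0.65 (0.0475) and *Rxra* at 0.30 (0.0144). With *ACVR1* WT replicate 1 left out, 3 of the 6 were higher and 2 lower there.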

How the data were processed

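The data comprised 12 RNAseq libraries of brainstem progenitors, 3 in each of 4 groups named by the vector labels. Reads from both ends were mapped by the authors to mm10 (GRCm38) with STAR in Galaxy (2.6.0b-1 in the submitters' processing notes) and counted by HTSeq-count on an Ensembl annotation without strand, in union mode, leaving out reads with several or ambiguous matches. They deposited raw counts per gene for each sample, neither normalized nor pooled. The totals, 19315020 to 26456257 counts, and 3 replicates per group limit precision.

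Counts were tested with edgeR 4.0.16 (limma 3.58.1, R 4.3.3), by a quasi-likelihood F test after TMM scaling on the 6 samples of a comparison, or all 12 for the interaction. Genes with a mean scaled count of at least 10 entered, p-values were adjusted over all of them by Benjamini-Hochberg, and 0.05 was the threshold. The script was tested on simulated data. Positions, symbols and exon lengths came from GENCODE M21 and promoters from RefSeq (Python 3.11.15).

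The members and lists were chosen with earlier results of these data known. Within each role, up to 4 called members with the largest fold change per comparison were given in full, or, where none was called, the 1 with the smallest p. Alternatives were DESeq2 1.42.0, its size factors or library totals within edgeR, no filter, at least 10 counts in every sample, a replicate block, all 12 samples in 1 fit, and each replicate left out.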

Additional observations from a re-analysis of the deposited data

How the results depend on the processing

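The median log2 fold change of the members kept its sign under every alternative run. It ranged from -0.33 to -0.09 for R206H without H3.1K27M, 0.06 to 0.10 for R206H with it, -0.39 to -0.25 for H3.1K27M with *ACVR1* WT, -0.17 to -0.10 for H3.1K27M with R206H and 0.22 to 0.48 for the interaction. The number of members called depended far more on the samples used.

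With all 12 samples in 1 fit, R206H with H3.1K27M gave 1 call (10 in the 6-sample fit) at 2.85% of all genes called, H3.1K27M with *ACVR1* WT 26 (11) at 41%, and H3.1K27M with R206H 16 (26) at 38.6%. DESeq2 called 22 members for H3.1K27M with *ACVR1* WT, at 29.4% of all genes, and 2 for the interaction (0 with edgeR), at 0.622%. Leaving out each replicate in turn gave 0 to 21 calls for R206H without H3.1K27M, 5 to 13 for R206H with it, 4 to 29 for H3.1K27M with *ACVR1* WT, 23 to 27 for H3.1K27M with R206H and 0 to 26 for the interaction. The counts of 21, 29 and 26 came without *ACVR1* WT replicate 1. Leaving out any other library gave 0 calls for R206H without H3.1K27M and for the interaction. For R206H with H3.1K27M, 6 calls remained without *ACVR1* WT with H3.1K27M replicate 2 or 3 and 5 without *ACVR1* R206H with H3.1K27M replicate 3. The log2 fold change of *Scd1* for R206H without H3.1K27M, 0.01, became -0.036 without *ACVR1* WT replicate 1 and -0.019 without *ACVR1* R206H replicate 1, in a range of -0.036 to 0.063. The cause was not tested.

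Over all genes the share called moved by more than 1.5 times as well. Without the filter it was 12% for R206H with H3.1K27M (20.3% with it) and 11.7% for H3.1K27M with *ACVR1* WT (23%).

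The replicate numbers are shared between groups, but nothing in the labels ties them to a litter or day, and same-numbered samples deviated together with correlations of -0.16 to 0.48. Not every pair exceeded 0.1, so the numbers were not taken as a pairing. With the replicate block the calls were 0 for R206H without H3.1K27M (0% of all genes), 11 for R206H with it (21.3%), 4 for H3.1K27M with *ACVR1* WT (13.1%), 26 for H3.1K27M with R206H (55.6%) and 0 for the interaction (0.0129%).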
